A study of Rattus norvegicus with 16 samples.

Results

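The genes described here are 8 genes of antigen presentation by major histocompatibility complex (MHC) class II in rat kidney. They were picked by name from a table of 35849 genes, and all 8 were found there and passed the filter on low counts in every comparison. RT1-Ba and RT1-Bb encode the alpha and beta chains of the class II molecule RT1.B, and RT1-Da and RT1-Db1 those of RT1.D. RT1-DMa and RT1-DMb encode the chains of DM, which exchanges peptides on class II molecules. Cd74 encodes the invariant chain that guides class II molecules to the endosome, and Ciita encodes the coactivator that switches the class II genes on. The study asked how sinomenine (SIN), a plant alkaloid, acts on diabetic nephropathy (DN), a kidney disease of diabetes.

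Renal RNA of 16 male Sprague Dawley rats was sequenced, 4 rats per group, and all rats were 6 to 8 weeks old at the start. The normal group received citrate buffer and a normal diet. The other 3 groups received streptozotocin, a toxin of the insulin-producing beta cells, at 45 mg/kg and a diet rich in glucose and fat, and of these only rats with a blood glucose over 16.7 mmol/L were kept. The DN group was then given vehicle, and 2 groups, SIN (20 mg/kg) and, with a higher daily dose, SIN (40 mg/kg), were given SIN by gavage for 8 weeks. The model thus combines a toxin with a diet, and no group had only one of these. Estimated counts summed to between 19616312 and 25217030 in single rats. Serial numbers of the libraries follow each other within a group, so condition and library batch cannot be told apart. The kidney label was met by the markers of tubules, whose 7 genes summed to between 9290 and 12900 CPM, and of podocytes, whose 4 genes summed to between 252 and 512 CPM in single rats. CPM, the normalised read count used throughout, scales a rat's count to its library total with TMM factors, which offset the weight of a few very abundant genes. One DN rat, replicate 3, stood apart in 8 markers of urothelium, smooth muscle and connective tissue, with 482 CPM against 102 to 234 in the other 15 rats.

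MHC class II molecules show peptides taken up from outside the cell to CD4+ T cells. They are made mostly by dendritic cells, macrophages and B cells, and by other cells, tubular epithelium among them, when interferon-gamma turns on Ciita. Ciita binds no DNA itself but acts through the factors RFX, CREB and NF-Y, which sit on the X and Y boxes shared by class II promoters.

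Because the members share this control, their promoters are shown around these boxes. RefSeq promoters of the rat build GRCr8, from 250 bases before to 50 bases after the gene start, were found for 6 of the 8 members. The Y box core GATTGG and the X box core ACNGATG were searched on both strands, and these letters do not overlap each other. The 5 members with a match on the gene's strand are printed 5′ to 3′ as 60 bases around the Y box, with both cores in capitals.

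RT1-Ba, chr20:4576968-4577027, plus strand: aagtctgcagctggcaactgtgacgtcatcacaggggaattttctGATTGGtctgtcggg
RT1-Bb, chr20:4604166-4604225, minus strand: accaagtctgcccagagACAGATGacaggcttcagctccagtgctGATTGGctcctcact
RT1-Da, chr20:4515320-4515379, plus strand: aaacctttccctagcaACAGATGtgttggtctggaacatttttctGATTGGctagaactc
RT1-Db1, chr20:4560229-4560288, minus strand: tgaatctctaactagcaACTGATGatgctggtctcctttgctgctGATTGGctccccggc
RT1-DMa, chr20:4712386-4712445, minus strand: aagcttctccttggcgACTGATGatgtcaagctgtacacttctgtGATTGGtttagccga

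The Y core started 44 to 81 bases before the gene start in these 5 promoters. The X core lay upstream of it in 4 of them, all but RT1-Ba, with 21 or 22 bases between the cores, and the RT1-Db1 promoter held a further Y core on the other strand. Of all 33469 promoters of this length, 14.8% held the Y core, 10.2% the X core, and 0.128% an X core followed within 40 bases by a Y core on the same strand. The Cd74 promoter held neither string of letters, and RT1-DMb and Ciita were not matched. These are matches of letters only.

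Cd74 was the most abundant member. Per kilobase of the listed gene length its level was 669 CPM over all 16 rats, followed by RT1-Da with 80.4, RT1-Ba with 63, RT1-Db1 with 54.2 and RT1-Bb with 33.7 CPM per kilobase. The DM chains were lower, with 15.5 for RT1-DMb and 14.4 for RT1-DMa, and Ciita had 1.4 CPM per kilobase. The counts behind these levels were estimated by the authors, and they were fractions in some rats, which happens when a read is divided between similar genes. The count of RT1-DMa was a fraction in 16 of 16 rats, that of RT1-DMb in 14, that of RT1-Db1 in 6 and that of RT1-Bb in 2. Those of RT1-Ba, RT1-Da, Cd74 and Ciita were whole in every rat. How many reads were divided was not measured, and a whole count does not by itself make a level certain.

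The mean level was highest in the normal group for 7 of the 8 members and lowest in the DN group for 6. The exceptions were RT1-Db1, lowest at SIN (40 mg/kg), and RT1-DMb, which ran from SIN (40 mg/kg) through SIN (20 mg/kg) and DN down to normal. Ciita, counted as lowest in DN, was nearly level, with means of 6.72 CPM in DN and at SIN (40 mg/kg) and 6.76 at SIN (20 mg/kg). Its median was higher in DN, 6.89 CPM, than at SIN (20 mg/kg), 6.42, or SIN (40 mg/kg), 6.5. For every member the ranges of neighbouring groups in the order of means overlapped. In whole tissue, fewer cells of a type and less RNA per cell cannot be told apart.

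**Figure D1:**
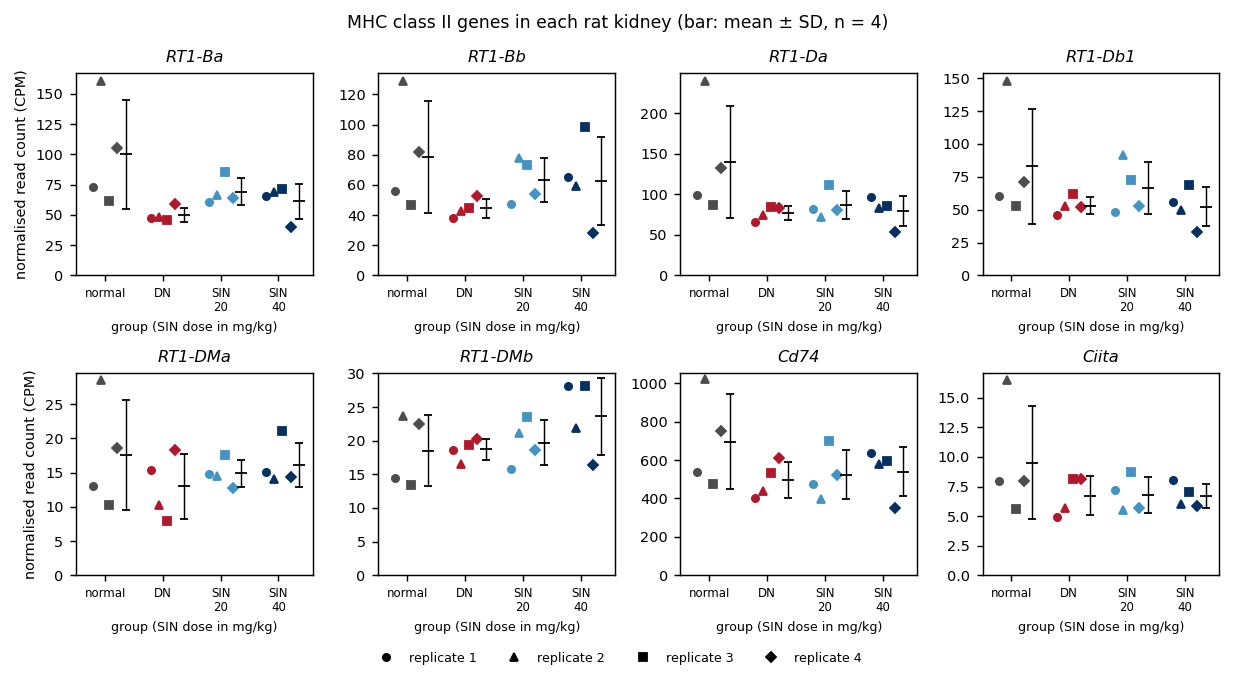
Normalised read count (CPM, linear axis from 0) of the 8 genes in each rat, by group, with symbols for the replicate number and a bar for the mean ± SD of 4 rats. Normal replicate 2 (dark triangle) is the highest of its group in 8 of 8 panels, and SIN (40 mg/kg) replicate 4 (dark blue diamond) is the lowest of its group in 7.

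RT1-Ba was lower in DN than in normal kidney. Its level in the normal rats was 73.5, 161, 61.4 and 105 CPM, and in the DN rats 47.2, 48.5, 46.2 and 58.9 CPM. All 4 DN rats lay below all 4 normal rats, and the DN rats were close together while the normal rats were spread widely. The log2 fold change was -1.0 (SE 0.26), a fold of 0.501, with an adjusted p of 0.0293 by edgeR's quasi-likelihood test. The adjusted p by edgeR was 0.0792 without normal replicate 4, and 0.067, 0.0721 and 0.059 without DN replicates 1, 2 and 3, so the call was lost when any of these rats was left out. The log2 fold change stayed between -0.98 and -0.96 in those 4 fits, in which 4.81% to 16.2% of all genes were called against 19.5% with all 8 rats. Without normal replicate 2, the highest rat, the log2 fold change was -0.69, with an adjusted p of 0.0274 by edgeR.

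RT1-Da, the alpha chain of RT1.D, measured 99.6, 240, 87.4 and 132 CPM in the normal rats and 66.2, 74.9, 84 and 83.3 CPM in the DN rats. The groups did not overlap, but the lowest normal and the highest DN rat were almost level. At -0.85 (SE 0.28), its log2 fold change missed the threshold, with an adjusted p of 0.056 by edgeR. Without normal replicate 2 it was -0.48, with an adjusted p of 0.0495.

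RT1-Bb, the beta chain of RT1.B, measured 55.8, 129, 46.4 and 82.1 CPM in the normal rats and 37.9, 42.6, 44.8 and 52.9 CPM in the DN rats. DN replicate 4 lay above the lowest normal rat, so the groups overlapped. Its log2 fold change was -0.81 (SE 0.28), with an unadjusted p of 0.0155 and an adjusted p of 0.0661 by edgeR. Without normal replicate 2 it was -0.48, with an adjusted p of 0.103. RT1-Ba, RT1-Bb and RT1-Da were all past the threshold by DESeq2 and by the exact test of edgeR, which called 26.4% and 21.5% of all genes.

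The beta chain gene RT1-Db1 measured 60.3, 148, 52.8 and 71.2 CPM in the normal rats and 46.1, 53, 61.8 and 52 CPM in the DN rats. The groups overlapped, and the gap between means owed much to 1 normal rat. The log2 fold change was -0.64 (SE 0.29, adjusted p = 0.136 by edgeR), and -0.22 without normal replicate 2.

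Cd74 measured 537, 1020, 475 and 751 CPM in the normal rats and 404, 438, 531 and 613 CPM in the DN rats. DN replicates 3 and 4 lay within the normal range. The log2 fold change of -0.49 (SE 0.24) had an adjusted p of 0.162 by edgeR, and the interval of 2 SE on either side ran from -0.96 to -0.02. It was -0.26 without normal replicate 2.

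Ciita measured 7.93, 16.5, 5.63 and 7.99 CPM in the normal rats and 4.95, 5.66, 8.15 and 8.12 CPM in the DN rats. Apart from normal replicate 2 the groups covered much the same range. Its log2 fold change was -0.50 (SE 0.32, adjusted p = 0.284 by edgeR), and -0.11 without that rat.

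The DM chains gave unlike values. RT1-DMa measured 13, 28.5, 10.3 and 18.6 CPM in the normal rats and 15.4, 10.3, 7.92 and 18.3 CPM in the DN rats, a log2 fold change of -0.44 (SE 0.34, adjusted p = 0.377 by edgeR), and -0.12 without normal replicate 2. RT1-DMb measured 14.5, 23.7, 13.4 and 22.5 CPM in the normal rats and 18.6, 16.6, 19.3 and 20.2 CPM in the DN rats, a log2 fold change of 0.01 (SE 0.19, adjusted p = 0.973 by edgeR). Every DN rat lay within the normal range of RT1-DMb. The interval of 2 SE ran from -0.37 to 0.39, so a change within these bounds was not excluded. Whether the 2 chains differed in their change was not tested.

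Over the 8 members, 7 had a negative log2 fold change in DN over normal, with a median of -0.57 against 0.00 for all 15775 genes tested. Without normal replicate 2 the median was -0.24. At an adjusted p under 0.05 by edgeR, 1 of 8 members was called and it was lower. Of all genes, 19.5% were called in either direction and 10.8% were called lower. At an unadjusted p under 0.05, 3 of 8 members were lower, against 19.4% of all genes. Groups did not overlap, with DN lower, for 2 of 8 members and for 13% of all genes. The count at an adjusted p was thus near the background of this comparison.

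**Figure D2:**
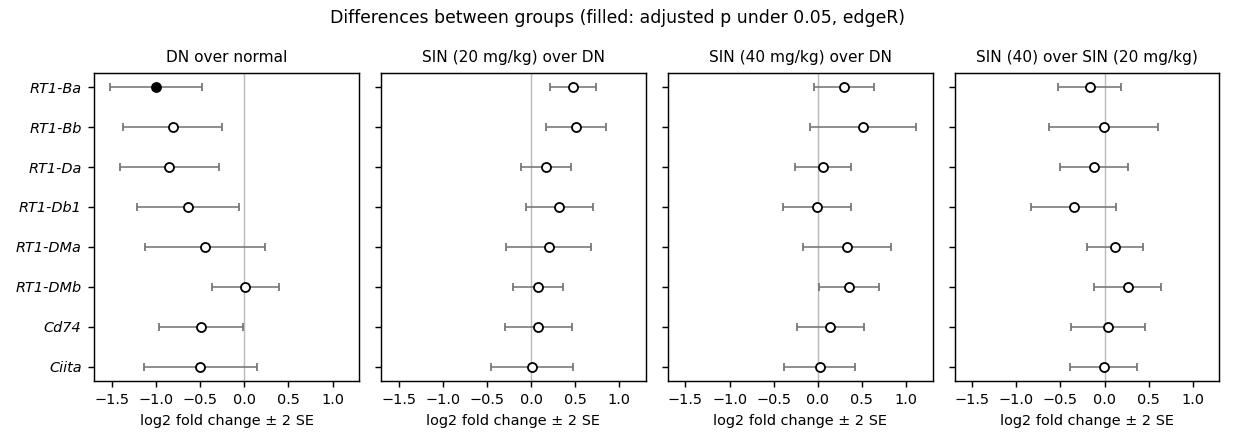
Log2 fold change (points) of the 8 genes in 4 comparisons, with bars of 2 SE on either side, from edgeR with 4 rats per group. Filled points have an adjusted p under 0.05, and RT1-Ba in DN over normal, at -1.0, is the only filled point.

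The same DN rats stand in this comparison and in those with SIN, so the comparisons are not independent and their values are given side by side. In the SIN (20 mg/kg) group RT1-Ba measured 60.8, 66.6, 85.6 and 63.9 CPM. All 4 rats lay above the 4 DN rats, the nearest pair being 60.8 and 58.9 CPM. Over DN its log2 fold change was 0.47 (SE 0.13), with an unadjusted p of 0.00491 and an adjusted p of 0.27 by edgeR.

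RT1-Bb in the SIN (20 mg/kg) rats measured 47.5, 77.7, 73.4 and 54.2 CPM. Replicates 2, 3 and 4 lay above all DN rats and replicate 1 did not. This gave a log2 fold change of 0.51 (SE 0.17), with an unadjusted p of 0.0134 and an adjusted p of 0.271 by edgeR.

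The RT1.D chains had smaller log2 fold changes, and whether they differed from the RT1.B chains was not tested. RT1-Da measured 82, 71.6, 112 and 81.1 CPM, with a log2 fold change of 0.17 (SE 0.14), and RT1-Db1 measured 48.5, 91.8, 72.3 and 53.2 CPM, with a log2 fold change of 0.32 (SE 0.19). In both genes the SIN (20 mg/kg) rats overlapped with the DN rats. RT1-Da was at 0.02 without SIN (20 mg/kg) replicate 3, and RT1-Db1 at 0.12 without replicate 2. The other members had log2 fold changes of 0.20 for RT1-DMa, 0.08 for RT1-DMb, 0.08 for Cd74 and 0.01 for Ciita, with adjusted p-values from 0.683 to 0.987 by edgeR. Cd74 measured 476, 398, 702 and 520 CPM and Ciita 7.19, 5.48, 8.73 and 5.65 CPM, so 1 rat, replicate 3, was high in both. RT1-DMa measured 14.8, 14.5, 17.6 and 12.8 CPM and RT1-DMb 15.8, 21.1, 23.5 and 18.6 CPM, and this rat was again the highest in each, while the groups overlapped.

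All 8 members were positive in SIN (20 mg/kg) over DN, with a median log2 fold change of 0.19 against -0.01 for all genes. Without SIN (20 mg/kg) replicate 3 the median was 0.07 and 3 members were negative. By edgeR's quasi-likelihood test at an adjusted p under 0.05, 0 of 8 members and 0% of 15724 genes were called. DESeq2 and edgeR's exact test also called 0 members, and over all genes they called 220 and 89. At an unadjusted p under 0.05, 2 of 8 members were higher, against 9.2% of all genes, and for 1 of 8 members the groups did not overlap with SIN higher, against 4.87% of all genes. With all 16 rats in one fit, 0 of 8 members were higher at an unadjusted p under 0.05, against 10.3% of all genes.

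At SIN (40 mg/kg) the values depended on single rats. RT1-Ba measured 65.7, 68.9, 71.1 and 39.7 CPM, and RT1-Bb measured 65, 59.6, 98.5 and 27.9 CPM. In both genes replicates 1 to 3 lay above all DN rats and replicate 4 lay below them all. The log2 fold changes over DN were 0.30 (SE 0.17, adjusted p = 0.389 by edgeR) for RT1-Ba and 0.51 (SE 0.30, adjusted p = 0.405 by edgeR) for RT1-Bb. Without replicate 4 they were 0.45 and 0.74, with unadjusted p-values of 0.00204 and 0.00348 and adjusted p-values of 0.378 and 0.379 by edgeR. Without replicate 3, the highest rat in both, they were 0.23 and 0.21, with adjusted p-values of 0.556 and 0.708 by edgeR.

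RT1-DMb, whose means in DN and normal kidney were close, measured 28.1, 21.9, 28.2 and 16.4 CPM at SIN (40 mg/kg). Replicates 1 to 3 lay above all DN rats and replicate 4 below them. The log2 fold change over DN was 0.35 (SE 0.17), with an unadjusted p of 0.0614 and an adjusted p of 0.312 by edgeR, and 0.49 without replicate 4. RT1-DMa measured 15.1, 14.1, 21 and 14.4 CPM, with a log2 fold change of 0.33 (SE 0.25), and 0.18 without replicate 3.

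The RT1.D chains, Cd74 and Ciita lay close to DN. RT1-Da measured 97.3, 82.8, 85.4 and 53.9 CPM (log2 fold change 0.06, SE 0.16), and RT1-Db1 measured 56.2, 50.1, 69.1 and 33.4 CPM (log2 fold change -0.01, SE 0.19). Cd74 measured 635, 580, 597 and 349 CPM (log2 fold change 0.14, SE 0.19), and Ciita measured 8.01, 5.99, 7 and 5.88 CPM (log2 fold change 0.02, SE 0.20). Replicate 4 was again the lowest rat in each of these genes. The log2 fold change of RT1-Db1 was 0.14 without replicate 4 and -0.18 without replicate 3, and that of RT1-Da was 0.20 without replicate 4.

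In SIN (40 mg/kg) over DN the median log2 fold change of the members was 0.22 against 0.01 for all genes. It was 0.33 without replicate 4 and 0.14 without replicate 3. By edgeR at an adjusted p under 0.05, 0 of 8 members and 0% of 15530 genes were called, and DESeq2 and edgeR's exact test called 0 members and 424 and 161 genes. At an unadjusted p under 0.05, 0 of 8 members were higher, against 9.9% of all genes. Without replicate 4, the lowest of its group in 7 members, it was 3 of 8, RT1-Ba, RT1-Bb and RT1-DMb, against 5.72% of all genes. When any other single rat was left out it was 0 of 8, against 6.1% to 9.95% of all genes. Groups without overlap and SIN higher were found for 0 of 8 members and 5.76% of all genes.

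Between the doses, in SIN (40 mg/kg) over SIN (20 mg/kg), the log2 fold changes of the members ran from -0.35 (SE 0.24) for RT1-Db1 to 0.26 (SE 0.19) for RT1-DMb. The groups overlapped in every member. By edgeR at an adjusted p under 0.05, 0 of 8 members were called and 0.00639% of 15657 genes, and DESeq2 and the exact test also called 0 members. At an unadjusted p under 0.05 it was 0 of 8 members against 4.98% of all genes, and without overlap 0 of 8 against 3.3%. The intervals of 2 SE were wide, from -0.53 to 0.19 for RT1-Ba and from -0.63 to 0.61 for RT1-Bb. A difference between doses within these bounds was thus not excluded.

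From rat to rat the levels of the members varied together. Over 16 rats in log2 CPM, the relation to Cd74 was closest for RT1-Da (Pearson r 0.93, Spearman rho 0.87), followed by RT1-Ba (r 0.87, rho 0.72) and Ciita (r 0.86, rho 0.81). RT1-Bb (r 0.80, rho 0.72), RT1-Db1 (r 0.70, rho 0.55), RT1-DMa (r 0.61, rho 0.59) and RT1-DMb (r 0.58, rho 0.69) came next. In the family of 7 relations, permutation tests gave adjusted p-values from 7e-05 to 0.0198 for r and from 0.00028 to 0.0291 for rho. These tests shuffled rats across all 4 groups, and how often other genes reach a like r with Cd74 was not tested. For RT1-Da the unadjusted permutation p for r was 1e-05, the smallest that 100000 resamples can give.

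The 2 rats farthest from the median of Cd74 were normal replicate 2 and SIN (40 mg/kg) replicate 4. Without them, over 14 rats, r was 0.86 for RT1-Da, 0.78 for Ciita and 0.71 for RT1-Ba, with adjusted permutation p-values of 0.00014, 0.00437 and 0.0098. For RT1-Bb r was 0.57, for RT1-DMb 0.55, for RT1-DMa 0.47 and for RT1-Db1 0.20, with adjusted permutation p-values for r of 0.0606, 0.0606, 0.105 and 0.493. By rho, RT1-Bb (0.58), RT1-DMb (0.65) and RT1-DMa (0.56) had adjusted permutation p-values of 0.0452, 0.0348 and 0.0492, and RT1-Db1 (0.33) had 0.251. Without those rats r thus fell most for RT1-Db1, and less for RT1-Bb and RT1-DMa. SIN (20 mg/kg) replicate 2, with 91.8 CPM of RT1-Db1 and 398 CPM of Cd74, stayed in. Its part in the low r of RT1-Db1 was not tested. With each group's mean taken out, r over the 16 rats ran from 0.60 for RT1-DMa to 0.95 for RT1-Da.

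**Figure D3:**
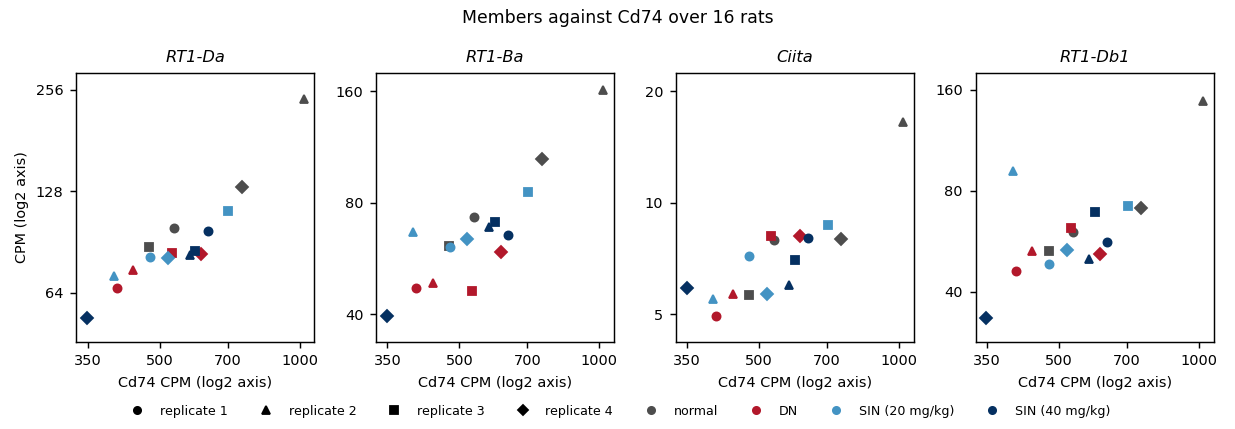
Level of RT1-Da, RT1-Ba, Ciita and RT1-Db1 against Cd74 in 16 rats (CPM, both axes logarithmic), with colours for the group and symbols for the replicate. RT1-Da follows Cd74 over the whole range (r 0.93), and in RT1-Db1 SIN (20 mg/kg) replicate 2, at 91.8 CPM, lies far above rats of like Cd74 level.

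The beta chains left the common pattern in 2 rats, a pattern noticed after their values were seen. The ratio of RT1-Bb to RT1-Ba was 1.39 in SIN (40 mg/kg) replicate 3 and 1.17 in SIN (20 mg/kg) replicate 2, against 0.703 to 0.99 in the other 14 rats. The ratio of RT1-Db1 to RT1-Da was highest in the same rats, 1.28 in SIN (20 mg/kg) replicate 2 and 0.809 in SIN (40 mg/kg) replicate 3, against 0.54 to 0.735 in the others. In the normal rats the 2 ratios ran from 0.756 to 0.8 and from 0.54 to 0.616, and in the DN rats from 0.804 to 0.969 and from 0.625 to 0.735. Both beta chains thus stood higher against their alpha chain in every DN rat than in any normal rat, which was not tested. The gaps were narrow, from 0.8 to 0.804 and from 0.616 to 0.625. The ratio of RT1-DMb to RT1-DMa overlapped, with 0.832 to 1.31 in the normal and 1.1 to 2.43 in the DN rats. These are ratios of CPM, not of molecules, since the genes differ in length. Class II chain genes are polymorphic and reads were aligned to 1 reference genome, and how reads of other alleles were counted was not tested.

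The balance of RT1-Da and Cd74 was also looked at after the values were seen, and it was not tested. The ratio of RT1-Da to Cd74 was 0.185, 0.235, 0.184 and 0.175 in the normal rats and 0.164, 0.171, 0.158 and 0.136 in the DN rats. All DN rats lay below all normal rats, as did the SIN (40 mg/kg) rats with 0.143 to 0.154, and the SIN (20 mg/kg) rats, with 0.156 to 0.18, overlapped with the normal rats in 1 rat.

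**Figure D4:**
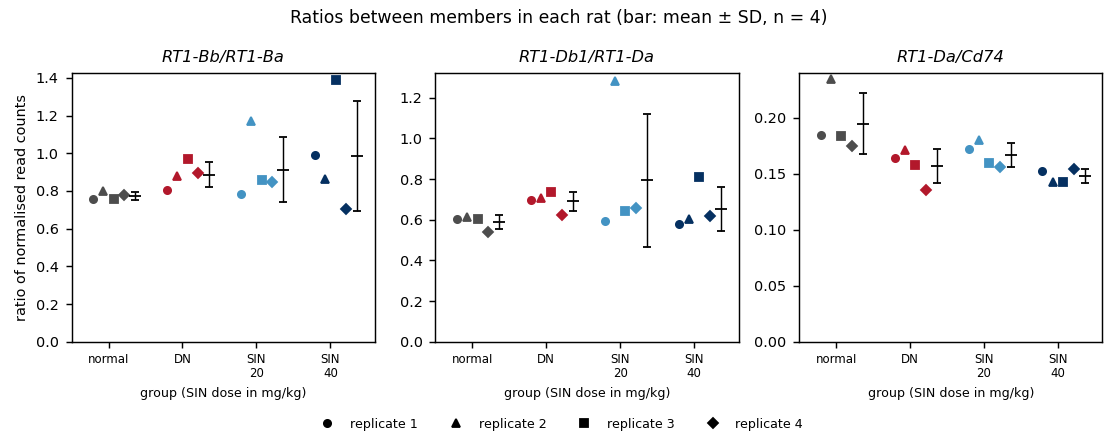
Ratio of CPM between 2 members in each rat (linear axis from 0), by group, with symbols for the replicate number and a bar for the mean ± SD of 4 rats. SIN (20 mg/kg) replicate 2 and SIN (40 mg/kg) replicate 3 have the highest beta to alpha ratios, and RT1-Da over Cd74 is 0.175 or more in the normal rats and 0.171 or less in the DN rats.

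The normal rat that led the members led some other immune lists too. Normal replicate 2 had the highest summed CPM of all 16 rats for macrophage markers (676), pan-leukocyte markers (113), dendritic cell markers (59.5), T cell markers (26.2), the class I pathway (2840) and the interferon-gamma axis (475). In that rat Irf8 made up 30.6 CPM of the dendritic cell sum and Lyz2 made up 430 CPM of the macrophage sum. Clec9a of the dendritic cell list, at 1.71 CPM, and the summed granulocyte list, at 1.17 CPM, were at their lowest of the normal group there. Irf1, a transcription factor induced by interferon-gamma, measured 47.1 CPM in that rat and 16.6 to 21.7 CPM in the other normal rats. Ifng itself was at 0 counts in 15 of 16 rats. What part these cells had in the level of the members was not tested.

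Among the marker lists of cells that present antigen, the dendritic cell list held a gene that was lower in DN than in normal kidney. Of its 9 genes 6 were tested. At an adjusted p under 0.05 by edgeR, 1 was lower and 0 were higher, while 10.8% of all genes were called lower. The median log2 fold change was -0.44, and the summed level ran from 36.4 to 59.5 CPM in normal and from 30.7 to 41.5 CPM in DN kidney. Clec9a, a receptor of type 1 conventional dendritic cells, measured 2.96, 1.71, 2.93 and 1.9 CPM in normal and 0.619, 0.455, 0.905 and 0.625 CPM in DN rats, a log2 fold change of -1.86 (SE 0.33, adjusted p = 0.00932 by edgeR). Clec9a was thus lower in every DN rat than in any normal rat, but its level was low, at most 0.905 CPM in the DN rats. Among the normal rats it was lowest in replicate 2, where RT1-Ba and the summed dendritic cell list were highest. Flt3, the receptor for a growth factor of dendritic cells, had a log2 fold change of -0.80 (SE 0.27, adjusted p = 0.061 by edgeR). Its level was low as well, 0.865 to 1.24 CPM in the DN rats. Zbtb46, a transcription factor of conventional dendritic cells, had a log2 fold change of -0.16.

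No macrophage marker passed the test in DN over normal. Of 9 tested genes 0 were called by edgeR at an adjusted p under 0.05, against 19.5% of all genes. At an unadjusted p under 0.05, 1 was higher and 1 lower, against 17.5% and 19.4% of all genes, and the median log2 fold change was 0.01. They summed to between 303 and 676 CPM in normal and between 436 and 536 CPM in DN kidney. Csf1r, the receptor for a growth factor of macrophages, had a log2 fold change of 0.43 (adjusted p = 0.0899 by edgeR), and Aif1 had -0.38 (adjusted p = 0.116).

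B cell markers were near the limit of detection. Their 7 genes summed to between 0.938 and 1.92 CPM in normal and between 1.11 and 2.61 CPM in DN kidney, and Ms4a1, which encodes CD20, did not pass 0.258 CPM in any rat. Ptprc, which encodes CD45 on leukocytes, was lower in DN, with a log2 fold change of -0.81 (SE 0.22, adjusted p = 0.0328 by edgeR). It was the 1 gene called among 4 tested pan-leukocyte markers, while 10.8% of all genes were called lower. Of these 4 markers, 2 had a positive and 2 a negative log2 fold change, with a median of -0.24. The 5 pan-leukocyte markers together summed to between 61.7 and 113 CPM in normal and between 66.5 and 83.9 CPM in DN. T cell markers had a median log2 fold change of -0.57, with 0 of 8 called at an adjusted p under 0.05 by edgeR, against 19.5% of all genes. At an unadjusted p under 0.05, 2 of 8 were lower, against 19.4% of all genes. Their sums were 14.6 to 26.2 CPM in normal and 9.8 to 19.3 CPM in DN. The part of these cells in the level of RT1-Ba was not tested.

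**Figure D5:**
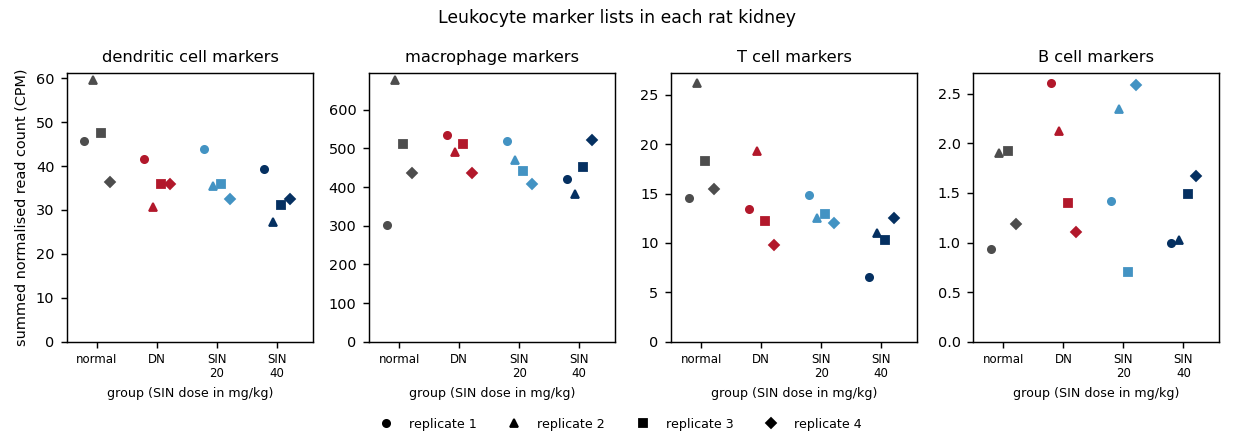
Summed CPM (linear axis from 0) of marker lists for dendritic cells, macrophages, T cells and B cells in each rat, by group, with symbols for the replicate number. Normal replicate 2 is the highest of all rats for the first 3 lists, and the B cell list stays at or below 2.61 CPM.

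Among 7 factors on class II promoters, Creb1 fell and Rfxank rose in DN. These 2 of 7 were called at an adjusted p under 0.05 by edgeR, near the 19.5% of all genes, with a median log2 fold change of -0.21. Creb1, which encodes CREB, measured 15.9, 13.5, 21.3 and 16.1 CPM in normal and 8.36, 9.7, 11.7 and 9.03 CPM in DN rats, a log2 fold change of -0.79 (SE 0.17, adjusted p = 0.0172 by edgeR). Rfxank, a subunit of RFX, rose by 0.47 (SE 0.13, adjusted p = 0.0331 by edgeR) on the log2 scale. Nfyb, a subunit of NF-Y, had -0.45 (adjusted p = 0.0877 by edgeR) and Rfx5 had -0.19.

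With SIN (20 mg/kg), 3 of these 7 factors were higher than in DN at an unadjusted p under 0.05, Nfyb, Creb1 and Rfx5, with log2 fold changes of 0.44, 0.68 and 0.36, against 9.2% of all genes. Their adjusted p-values were 0.27 to 0.287 by edgeR. With SIN (40 mg/kg) it was 1 of 7, Creb1, with 0.57 (adjusted p = 0.2 by edgeR), against 9.9% of all genes. These comparisons share the DN rats with the one before.

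In the interferon-gamma axis 0 of 7 tested genes were called in DN over normal at an adjusted p under 0.05 by edgeR, against 19.5% of all genes. At an unadjusted p under 0.05, 1 of 7 was lower, against 19.4% of all genes. That gene was Jak2, a kinase of the interferon-gamma receptor, with a log2 fold change of -0.57 (SE 0.19, adjusted p = 0.058 by edgeR). Irf1 had -0.17, with overlapping groups.

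The other class II chains were scarce. RT1-DOb and RT1-DOa, the chains of the DM inhibitor DO, measured 2.75 to 6.93 and 1.17 to 4.44 CPM in normal rats and 1.11 to 3.76 and 0.407 to 1.3 CPM in DN rats. Their log2 fold changes were -0.97 (SE 0.40, adjusted p = 0.108 by edgeR) and -1.25 (SE 0.52, adjusted p = 0.112 by edgeR). The other tested gene of the list, RT1-Db2, went the other way, with 0.61 (SE 0.41, adjusted p = 0.308 by edgeR) and overlapping groups. Of the 3 genes of the list that were tested, 0 were called at an adjusted p under 0.05 by edgeR, against 19.5% of all genes. RT1-DOb and RT1-DOa were lower at an unadjusted p under 0.05, as were 19.4% of all genes.

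Among endosomal processing genes 1 protease rose in DN. Of 7 tested, 1 was higher in DN at an adjusted p under 0.05 by edgeR and 0 were lower. Of all genes, 19.5% were called in either direction. The median log2 fold change of the list was 0.20. Ctsd, which encodes the protease cathepsin D, measured 492, 600, 379 and 433 CPM in normal and 840, 809, 755 and 776 CPM in DN rats, a log2 fold change of 0.74 (SE 0.14, adjusted p = 0.0105 by edgeR). Ctss, which encodes the protease that trims the invariant chain, had -0.27 (adjusted p = 0.278 by edgeR).

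The class I pathway held 1 higher and 1 lower gene among 13 in DN over normal at an adjusted p under 0.05 by edgeR. Of all genes, 19.5% were called in either direction. The median log2 fold change of the list was -0.07. B2m, the light chain of class I molecules, had -0.40 (SE 0.12, adjusted p = 0.0412 by edgeR), and Tapbp, a chaperone of their loading, had 0.53 (SE 0.15, adjusted p = 0.0343 by edgeR). Of the 3 tested costimulation genes 0 were called by edgeR in DN over normal, against the same 19.5%. At an unadjusted p under 0.05 it was 0 as well, against 17.5% of all genes higher and 19.4% lower. In SIN (40 mg/kg) over DN, Cd40, a costimulatory receptor of antigen-presenting cells, had -0.93 (SE 0.24), with an unadjusted p of 0.0034 and an adjusted p of 0.188 by edgeR.

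The genes most like the members over the 16 rats were Astn1 (r 0.83), Nup50 (r 0.79), Fmnl1 (r 0.78), Bag3 (r 0.78) and Slc33a1 (r 0.76). The measure was Pearson's r with the mean log2 CPM of the 8 members, over 13349 genes of at least 1 CPM. Each member's own r with the mean of the other 7 ran from 0.56 for RT1-DMb to 0.93 for RT1-Ba. The points share libraries, and normal replicate 2 had the highest mean over the members, 6.61 against 4.98 to 5.95 log2 CPM in the other rats.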

How the data were processed

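Per the paper's methods, mRNA was enriched with oligo(dT), sequenced on an Illumina platform, trimmed with SeqPrep and Sickle and aligned with TopHat to the rat build Rnor_6.0. The authors deposited estimated counts per gene without normalization, with a listed gene length. The submitters' processing notes also name Bowtie, RSEM and edgeR, without their roles. Whole numbers, counted by exact equality as deposited with no tolerance, made up 74.3% of values above 0, and every value was rounded here. Columns were joined to rats by library number, and 4 library columns and 5 columns of means were not used. No name was given for 2999 of the genes.

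Counts were tested with edgeR 4.0.16 (R 4.3.3) by its quasi-likelihood test, two-sided, in a separate fit of the 8 rats of each comparison, with TMM normalization, filterByExpr and Benjamini-Hochberg adjustment over all tested genes. CPM used TMM factors over 16 rats, and log2 CPM a prior count of 2. Correlations were tested by two-sided permutation with 100000 resamples in Python 3.11.15. Alternatives were DESeq2 1.42.0, edgeR's exact test, RLE, other filters, unrounded counts, 1 fit of all rats, the replicate number as a block and leaving out 1 rat at a time. The quasi-likelihood test, the exact test and DESeq2 were tried on simulated counts for DN over normal only.

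Named are all members, list genes at an unadjusted p under 0.05 or with the smallest p, and the 5 genes most like the members. Zbtb46, Ms4a1, Ifng, Ctss and RT1-Db2 were named after their values were seen. Some genes of the lists are not reported here. The members and lists were chosen with earlier results of these data known. Rats are separate animals, so p-values measure the spread between rats.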

Additional observations from a re-analysis of the deposited data

Results flagged for a closer look

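Among the 32 sets of 4 rats (8 members in 4 groups), 2 held a rat far from the other 3 by Dixon's criterion, and chance alone flags about 1 set in 20. RT1-Ba measured 39.7 CPM in SIN (40 mg/kg) replicate 4, against 65.7 to 71.1 CPM in the other rats of that group. RT1-DMa measured 21 CPM in SIN (40 mg/kg) replicate 3, against 14.1 to 15.1 CPM in the others.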

How the results depend on the processing

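Of 512 alternative values of the members' log2 fold changes, 465 kept their direction and their side of the threshold, 7 passed it in addition, 5 fell short of it and 35 changed sign, in 12 of the fold changes. In DN over normal the count of called members was 1 and moved to 3 with DESeq2 or the exact test of edgeR, to 2 with at least 10 counts in every compared rat and with all 16 rats in 1 fit, and to between 0 and 2 when a rat was left out. The share of all genes called moved too, from 19.5% to 26.4% with DESeq2, 21.5% with the exact test, 22.2% with the stricter filter, 22.4% with all rats in 1 fit, and between 4.81% and 23.6% when a rat was left out. With the replicate number as a block (replicate block) it was 0 against 8.4% of all genes, RT1-Ba having an adjusted p of 0.0523, and no other member call changed. Samples of the same number did not deviate together (r -0.25 to 0.26 over 24 pairs), and the labels do not tie numbers across groups. In the other comparisons the count of called members was 0 under every alternative run.

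The changes of sign came nearly all from leaving out 1 rat, in values close to 0 in which no call was made. They ranged from -0.11 to 0.14 for RT1-DMb in DN over normal. In SIN (20 mg/kg) over DN the ranges were -0.09 to 0.20 for Cd74, -0.14 to 0.12 for Ciita and -0.01 to 0.17 for RT1-DMb. In SIN (40 mg/kg) over DN they were -0.12 to 0.12 for Ciita, -0.05 to 0.20 for RT1-Da and -0.18 to 0.14 for RT1-Db1. In SIN (40 mg/kg) over SIN (20 mg/kg) they were -0.10 to 0.14 for Ciita, -0.31 to 0.24 for RT1-Bb, -0.07 to 0.22 for Cd74, -0.23 to 0.03 for RT1-Da and -0.03 to 0.20 for RT1-DMa. Ciita also changed sign in SIN (40 mg/kg) over DN with all 16 rats in 1 fit (-0.0002) and in SIN (40 mg/kg) over SIN (20 mg/kg) with the replicate block (0.01). Without the 2 rats farthest from the median of Cd74, r with Cd74 fell below the threshold for RT1-Bb (0.57), RT1-Db1 (0.20), RT1-DMa (0.47) and RT1-DMb (0.55), while rho stayed past it for all of these but RT1-Db1. The cause of these changes was not tested. Each of the 8 members had at least 112 counts in every rat, and the comparisons had 4 rats per group.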
